A study of Mus musculus and Oryctolagus cuniculus and Sus scrofa with 20 samples.

Results

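miR-191-5p and miR-425-5p are the 5′-arm products of a pair of neighbouring microRNA hairpins on mouse chromosome 9. A tag (a distinct read sequence with its count) of 18 to 26 nt was assigned to either miRNA when its first 18 nt equalled those of the mouse mature sequence, and each list of tags was summed. The 2 members were chosen by their levels across these libraries, among 1868 matched miRNA entries, so levels, their order and their differences are given as a description with no test. The rule has no threshold on the level. Both members had reads in all 20 libraries.

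The 20 small RNA libraries came from total RNA and each stands for 1 condition, without a replicate, so an interval given here is a 95% counting interval and covers counting error only. The mouse series holds cultured spermatogonial stem cells (SSCs, the self-renewing cells that found spermatogenesis), pre-leptotene and leptotene spermatocytes from postnatal day 9, zygotene spermatocytes from day 13, pachytene spermatocytes and round spermatids from day 25, and mature sperm, all from wild-type males and labelled C57BL/6. The rabbit series holds whole wild-type testes of postnatal days 10, 30, 60, 70, 80, 90, 110 and 180. An exogenous spike-in was added to the rabbit RNA, and 1 library each comes from wild-type adult testes of pig and rat. A further SSC experiment, from a C57BL/6 x DBA2 F1 male of day 15 with an actin-EGFP transgene, holds a wild-type control and a line each in which miR-741 was knocked out by TALEN or by CRISPR; the lines are picked single colonies, and colonies were grown on mouse embryonic fibroblast feeder cells. The labels do not give the number of animals behind a library, nor an age for the SSCs of the stage series, for mature sperm, for pig or for rat. The growth protocol, which the SSC libraries share, describes SSCs from the C57BL/6 x DBA2 F1 cross. Whether the SSCs of the stage series, labelled C57BL/6, are that line is not known. Libraries held 597732 to 25908109 reads, of which 213979 (CRISPR line) to 6301548 (pre-leptotene) were miRNA reads. In bulk RNA, fewer cells of a type and less RNA per cell cannot be told apart.

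As background, a miRNA hairpin is cut out of a longer transcript and then diced, and 1 arm of the duplex is usually retained by an Argonaute protein. Bases 2 to 8 of the mature strand, the seed, are the main contact with target mRNAs. The 3′ end is less constrained: it varies with the position of the dicing cut and with trimming, and terminal nucleotidyltransferases can add A or U that the genome does not encode. miR-191-5p is common in many tissues and is often used as a reference in qPCR of miRNAs.

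The sequences of both arms of each hairpin, from RefSeq on GRCm38.p6, are shown because the seed and the 3′ end of the 5p strands define what was counted; capitals mark the seed.
miR-191-5p: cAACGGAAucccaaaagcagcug
miR-191-3p: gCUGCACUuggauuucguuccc
miR-425-5p: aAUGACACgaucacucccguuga
miR-425-3p: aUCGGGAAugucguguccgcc
The 2 members have different seeds. No other RefSeq mouse miRNA name had the seed of miR-191-5p, and 1, miR-489-3p, had that of miR-425-5p.

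The hairpin of Mir191 lies at chr9:108568319-108568392 and that of Mir425 at chr9:108568777-108568861, both on the plus strand of GRCm38, with 384 bases between them. Both hairpins are within the single exon of the longer transcript of 4833445I07Rik, a long intergenic noncoding RNA gene, in GENCODE release 21 of mouse. In its shorter, spliced transcript Mir191 falls in the intron and Mir425 lies beyond the end. Gm24083 is annotated on the opposite strand across Mir191. RefSeq places both hairpins within Dalrd3, at 108567484-108572773, whereas the GENCODE gene of that name starts at 108569886. The hairpins are printed below because the 3′ ends of the reads were compared with them; capitals mark the RefSeq mature arms.
Mir191 hairpin: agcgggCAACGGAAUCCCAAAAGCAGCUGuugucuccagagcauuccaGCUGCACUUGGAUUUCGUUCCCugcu
Mir425 hairpin: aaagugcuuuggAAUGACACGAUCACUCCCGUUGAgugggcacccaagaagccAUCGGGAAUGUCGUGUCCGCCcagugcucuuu

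In the mouse series both members were low from SSCs to zygotene spermatocytes and high from pachytene spermatocytes to mature sperm, as shares of the miRNA reads. Levels are given as RPM, reads of the miRNA in 1000000 miRNA reads, or as all-read RPM, in 1000000 reads of any kind. miR-191-5p stood at 2299 RPM in SSCs, at 8603 in pre-leptotene, 6754 in leptotene and 6111 in zygotene cells, then at 91142 at pachytene, 180386 for round spermatids and 321622 for mature sperm. The last 3 libraries lie above all 4 others, and no counting intervals of neighbours in this order overlapped, with 12465 to 1220113 reads. How many other miRNAs part the libraries in this way is not given here. Among the miRNAs it ranked 66 in SSCs, 15 at pre-leptotene, 19 at leptotene and 24 at zygotene. Its rank was then 4 at pachytene, 2 for round spermatids and 1 for mature sperm, where 32.2% of miRNA reads were miR-191-5p.

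miR-425-5p stood at 72.7 RPM in SSCs, at 34.3 in pre-leptotene, 27.4 in leptotene and 56.8 in zygotene cells, then at 2419 at pachytene, 2523 for round spermatids and 4373 for mature sperm. The same 3 late libraries were high, and the counting intervals of leptotene and pre-leptotene overlapped, as did those of pachytene and round spermatid. Its rank was 214 in zygotene, 52 in pachytene and 33 in mature sperm. The counts behind these values ran from 136 reads in leptotene to 16591 in mature sperm, so its early levels are the least precise.

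**Figure D1:**
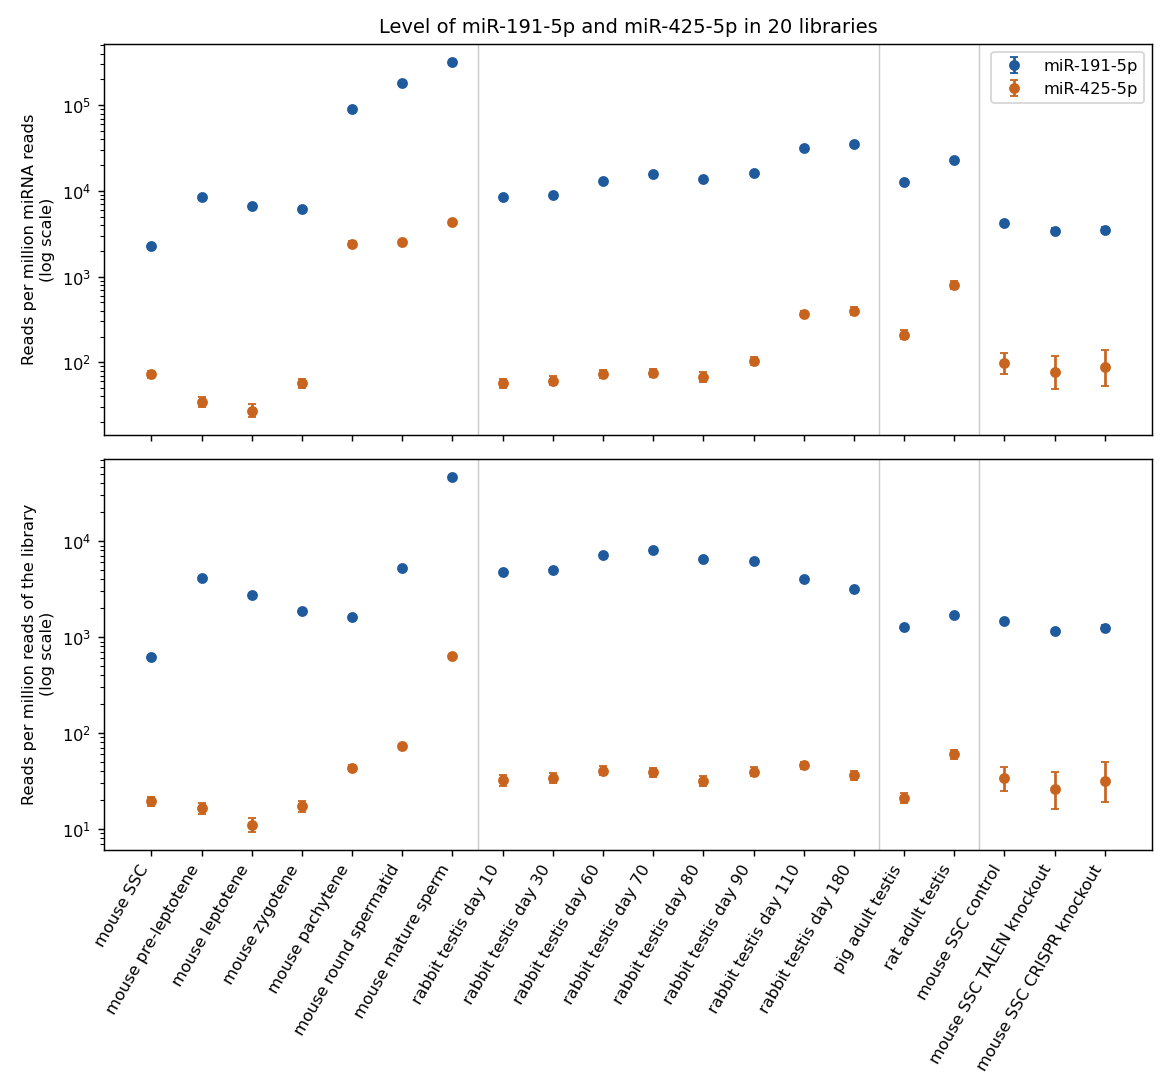
Level of miR-191-5p (blue) and miR-425-5p (orange) in each of the 20 libraries, on log axes, as RPM (top) and all-read RPM (bottom); points are single libraries, bars are 95% Poisson intervals, and grey lines part mouse stages, rabbit ages, pig and rat, and the knockout experiment. Per miRNA reads the last 3 mouse stages stand above the rest for both members; per all reads only mature sperm stands far above, at 47094 for miR-191-5p and 640 for miR-425-5p.

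The step from zygotene to pachytene was the only one of 6 at which a member differed 4-fold or more per miRNA reads. miR-191-5p was higher in pachytene by 3.90 on the log2 scale (interval 3.88 to 3.92) and miR-425-5p by 5.41 (5.22 to 5.61), so both members were past the mark. Of the 295 miRNAs with at least 100 reads in 1 of these libraries, 8.47% were past 4-fold upward and 13.2% past 4-fold downward; 20 had a larger positive difference than miR-191-5p and 18 than miR-425-5p. The median of all 295 was -0.34.

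This step depends on what the reads are scaled to. miRNA reads made up 30.4% of the zygotene library and 1.79% of the pachytene library. In all-read RPM miR-191-5p was at 1855 in zygotene and 1632 in pachytene, a log2 difference of -0.18, and miR-425-5p was at 17.2 and 43.3, a difference of 1.33. On that scale neither member was past the 4-fold mark here, with 5.76% of miRNAs higher and 91.5% lower. The scales give different directions for miR-191-5p and the same direction for miR-425-5p. In pre-leptotene and leptotene cells miR-191-5p was at 4117 and 2741 all-read RPM, both above its pachytene level.

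From SSCs to pre-leptotene the members differed in opposite directions per miRNA reads, miR-191-5p by 1.90 (1.88 to 1.93) and miR-425-5p by -1.08 (-1.33 to -0.84). The median of 387 miRNAs at this step was -2.02, and 3.62% were 4-fold higher and 50.1% 4-fold lower (6.98% and 38% by all reads). With TMM factors the differences were 3.25 and 0.27, so the sign for miR-425-5p flips and miR-191-5p passes the 4-fold mark. Culture, stage and a possible difference of strain cannot be told apart here, as the SSCs alone were grown in culture.

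Pre-leptotene and leptotene cells, both of day 9, were close: miR-191-5p differed by -0.35 and miR-425-5p by -0.32 on the log2 scale, and 0.386% of 259 miRNAs were 4-fold higher and 0 were lower. From leptotene to zygotene miR-425-5p differed by 1.05 (0.75 to 1.36) and miR-191-5p by -0.14, where the median of 286 miRNAs was 0.66 and 9.79% were 4-fold higher (6.64% by all reads, with 0.35% lower). The members thus differed in direction at this step as well, relative to miRNA reads. The Sertoli or gonadal list (miR-202-5p and miR-202-3p) was 0.015% of miRNA reads at leptotene, 0.323% at zygotene and 0.036% at pachytene, so it stood high in the zygotene library that is the base of the step to pachytene. Both of its miRNAs were past 4-fold between leptotene and zygotene, with a median log2 difference of 4.36, and the part of these cells in the members' levels was not tested.

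From pachytene to round spermatids miR-191-5p differed by 0.98 (0.97 to 1.00), while miR-425-5p differed by 0.06 with an interval from -0.05 to 0.18 that includes 0. Among 156 miRNAs 4.49% were 4-fold higher and 16.7% lower (5.77% and 10.3% by all reads). From round spermatids to mature sperm the 2 members differed by 0.83 and 0.79 per miRNA reads, where 24.6% of 244 miRNAs were 4-fold higher and 19.3% lower. In all-read RPM the same differences were 3.17 and 3.13, with 59.8% of miRNAs 4-fold higher and 3.69% lower; miRNA reads were 2.90% of the round spermatid library and 14.6% of the sperm library.

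Markers of some other cells also stood high in the sperm library. The 7 listed epithelial miRNAs (the miR-200 family, miR-203-3p and miR-205-5p) summed to 1.56% of miRNA reads there, against 0.023% in round spermatids and 0.322% in SSCs, and the 5 blood cell miRNAs to 1.18% against 0.014%. In mature sperm all 7 and all 5 had reads. The 8 feeder or stromal miRNAs were 11.8% of miRNA reads in sperm, 3.0% in round spermatids and 8.53% in SSCs. The Sertoli or gonadal list went the other way, at 0.0026% in sperm and 0.020% in round spermatids. The part of these cell types in the levels of the members was not tested. The late germ cell list (miR-34c-5p, miR-34b-5p and miR-449a-5p) was 0.523% in SSCs, 0.126% at zygotene, 17.4% at pachytene and 24.6% for round spermatids. It was 0.495% for mature sperm, where both members were at their highest.

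Reads of the 3p arms were few for Mir191 and varied beside the 5p arm for Mir425. miR-191-3p had 3 reads in SSCs, 0 in zygotene, 15 in round spermatids and 1201 in mature sperm, which is 317 RPM there. miR-425-3p had 74 reads in pachytene and 34 in mature sperm, or 181 and 8.96 RPM. In sperm the 5p arm of Mir425 was at its highest level, while the 3p arm was within its range of 6.24 to 9.89 RPM from SSCs to zygotene. As a share of the 5p reads, miR-425-3p came to 22.8% at leptotene (31 against 136 reads), 7.50% at pachytene and 0.20% for sperm. In rabbit it came to 30.5% on day 10 (74 against 243 reads), 35.9% on day 30 (97 against 270) and 2.28% on day 180 (8 against 351).

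In rabbit testis miR-191-5p was at 8404 RPM on day 10, 8968 on day 30, 12939 on day 60, 15593 on day 70, 13856 on day 80, 16234 on day 90, 31730 on day 110 and 35293 on day 180. Days 110 and 180 stand above the younger ages, and no neighbours in the order of levels had overlapping intervals. The share of other miRNAs with this division of ages is not given here. miR-425-5p was at 56.9 on day 10, 61.0 on day 30, 73.4 on day 60, 75.2 on day 70, 67.6 on day 80, 104 on day 90, 365 on day 110 and 402 on day 180. The same 2 ages were high, and in the order of levels 5 of 7 neighbouring pairs had overlapping intervals, days 110 and 180 among them. Reads of miR-425-5p that start 1 or 2 nt away, 10.5% to 23.1% at the 8 ages, are not counted in these levels.

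Between days 10 and 180 miR-191-5p differed by 2.07 (2.05 to 2.09) and miR-425-5p by 2.82 (2.58 to 3.07) on the log2 scale, per miRNA reads; 13.8% of 203 miRNAs were 4-fold higher and 15.8% lower. The largest difference between consecutive ages lay between days 90 and 110, at 0.97 for miR-191-5p and 1.81 for miR-425-5p. Over the same ages the miRNA share of all reads was 56.6% on day 10, 38.3% on day 90, 12.6% on day 110 and 9.07% on day 180. In all-read RPM miR-191-5p was highest on day 70, at 8066, and lowest on day 180, at 3202, a log2 difference of -0.57 from day 10, where 4.93% of miRNAs were 4-fold higher and 71.4% lower. On that scale miR-425-5p stayed between 31.7 and 46.0 at all 8 ages.

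The late germ cell miRNAs were 0.009% of miRNA reads on day 10, 0.123% on day 90, 4.74% on day 110 and 8.99% on day 180 in rabbit, with 3 of 3 past 4-fold between days 10 and 180. The epithelial list also stood higher, at 0.021% on day 10 and 0.632% on day 180, with 5 of 5 measured members 4-fold higher. The feeder or stromal list was between 15.3% and 25.5% of miRNA reads at the 8 ages. The part of these cell types in the levels of miR-191-5p and miR-425-5p was not tested.

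The adult pig testis had 12719 RPM of miR-191-5p and the adult rat testis 22693, at rank 11 in both, below the 35293 of the rabbit of day 180. miR-425-5p was at 210 in pig (186 to 236) and 805 in rat (724 to 892), so the rat was above the 402 of that rabbit and the pig was below it. The order of the 3 species therefore differed between the members. The late germ cell list was 0.953% of miRNA reads in pig, 35.8% in rat and 8.99% in the rabbit of day 180. Reads of all species were matched to mouse sequences, and the animals' ages are given only as adult for pig and rat.

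In the knockout experiment miR-741-3p, the targeted miRNA, had 80096 reads in the control, 3 in the TALEN line and 5 in the CRISPR line. Both lines were compared with the same control library. miR-191-5p was at 4249 RPM in the control, 3440 in the TALEN line and 3514 in the CRISPR line, with log2 differences of -0.30 (-0.42 to -0.19) and -0.27 (-0.40 to -0.15). miR-425-5p, with 49, 22 and 19 reads, was at 98.4, 78.0 and 88.8, and its intervals of -1.13 to 0.42 and -0.99 to 0.64 both include 0. Neither member was past 2-fold in either line, where 16.9% of 178 miRNAs were 2-fold higher and 15.2% lower with TALEN, and 10.3% of 175 each way with CRISPR. Feeder or stromal miRNAs also differed: 5 of 7 measured were 2-fold lower and 1 higher with TALEN (median log2 -1.53, against 0.02 for all miRNAs), and 3 of 7 lower and 1 higher with CRISPR (median -0.95 against 0.17). Their summed share was 7.41% of miRNA reads in the control, 6.69% with TALEN and 7.42% with CRISPR, and their part in the lower miR-191-5p levels was not tested.

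The 2 miRNAs did not keep a fixed proportion. Reads of miR-191-5p per read of miR-425-5p, which need no scaling, were 31.6 (28.6 to 35.1) in SSCs, 251 (220 to 288) at pre-leptotene, 247 (209 to 294) at leptotene, 108 (95.3 to 122) at zygotene, 37.7 (35.4 to 40.2) at pachytene, 71.5 (68.2 to 75.01) for round spermatids and 73.5 (72.4 to 74.7) for mature sperm. Pre-leptotene and leptotene were high with overlapping intervals, SSCs and pachytene were low, and the highest ratio was 7.93 times the lowest. In rabbit the ratio was 148 on day 10, 147 on day 30, 176 on day 60, 207 on day 70, 205 on day 80, 156 on day 90, 87.0 on day 110 and 87.7 on day 180, so the 2 oldest ages were low. Pig had 60.7 (53.9 to 68.6) and rat 28.2 (25.4 to 31.4), whose interval overlaps that of mouse SSCs. The SSC control had 43.2, the TALEN line 44.1 and the CRISPR line 39.6, with intervals that overlap.

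The size of the ratio depends on the match. Counting only tags that hold the full mature sequence gave 20.4 for SSCs, 127 at pre-leptotene, 17.1 at pachytene, 13.1 for round spermatids, 12.4 for mature sperm, 11.8 for the rabbit of day 180, 10.7 for pig and 12.0 for rat; the 22-nt form of miR-191-5p, which ends 1 nt short of the RefSeq end, is then left out. Pre-leptotene stayed the highest mouse stage, and mature sperm became the lowest. Allowing 1 mismatch left the mouse sperm ratio at 72.5. Adding reads whose start was shifted by 1 or 2 nt gave 115 on rabbit day 10, 168 on day 70 and 79.2 on day 180. These rabbit values are below those of the main count, which leaves such reads out. For mouse sperm the same addition gave 73.8.

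**Figure D2:**
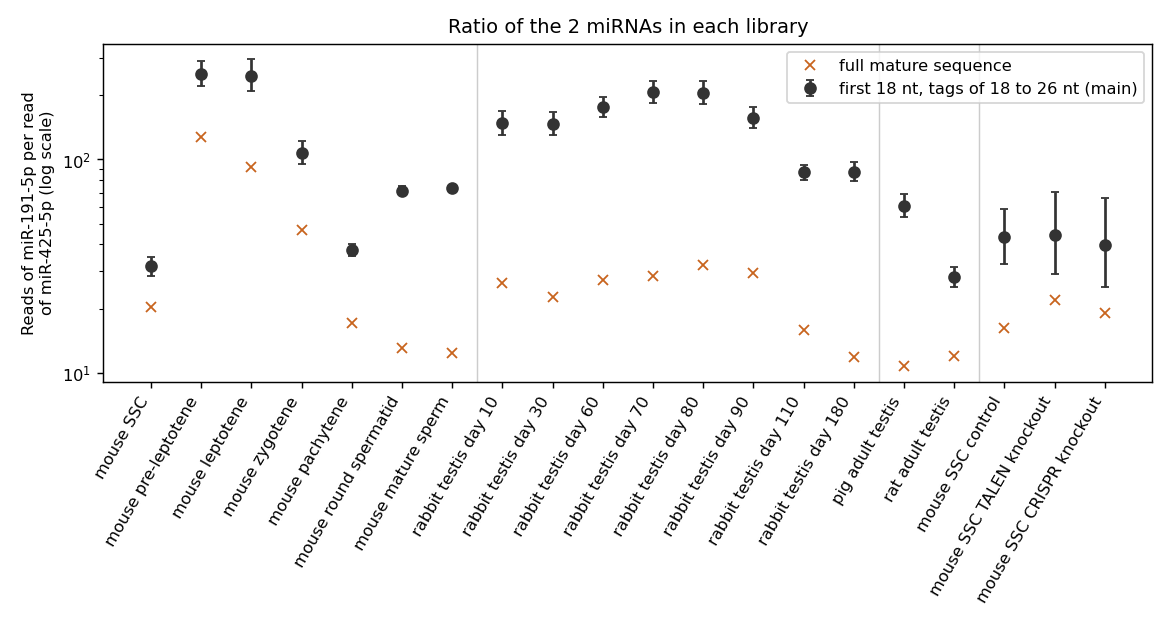
Reads of miR-191-5p per read of miR-425-5p in each library on a log axis; black points with 95% conditional binomial intervals count tags by their first 18 nt, and orange crosses count only tags that hold the full mature sequence. Pre-leptotene and leptotene stand highest at 251 and 247 in the main count, and the crosses lie below the points in every library.

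The 3′ ends were not used to choose the members. Tags are shown here with the commonest ends, since the ends differ between libraries; capitals mark bases that the mouse hairpin does not encode.
miR-191-5p, 22 nt: caacggaatcccaaaagcagct
miR-191-5p, 24 nt: caacggaatcccaaaagcagctgt
miR-191-5p, 22 nt and a U tail: caacggaatcccaaaagcagctT
miR-425-5p, 25 nt: aatgacacgatcactcccgttgagt
miR-425-5p, 22 nt: aatgacacgatcactcccgttg
miR-425-5p, 23 nt and an A tail: aatgacacgatcactcccgttgaA
The 22-nt form of miR-191-5p ends 1 nt before the RefSeq end and the 24-nt form 1 nt after it, and the 25-nt form of miR-425-5p runs 2 nt past its RefSeq end.

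The 22-nt form held 39.4% of miR-191-5p reads in SSCs (38.6 to 40.3), 50.8% at pre-leptotene, 52.5% at leptotene, 51.3% at zygotene, 53.4% at pachytene, 70.8% for round spermatids (70.5 to 71.0) and 64.4% for mature sperm. The 24-nt form held 32.5% in SSCs (31.6 to 33.3), 23.4% at pre-leptotene, 21.8% at leptotene, 23.2% at zygotene, 26.3% at pachytene, 11.8% for round spermatids (11.7 to 12.0) and 6.87% for mature sperm. Round spermatids and mature sperm stood apart from the 5 earlier libraries on both measures. The share of other miRNAs whose lengths part the libraries so is not given here. This division of miR-191-5p lengths was not the one seen in its levels per miRNA reads, where pachytene stood with the late stages. In all-read RPM miR-191-5p was at 1632 at pachytene, below 1855 at zygotene and 5239 for round spermatids. The contrast between ends and levels thus depends on the scale.

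Outside mouse the 22-nt form was more frequent in rabbit and pig than in rat. It held 70.1% to 77.2% of reads at the 8 rabbit ages and 75.03% in pig, but 46.0% in rat (45.0 to 47.0). The 24-nt form held 2.34% to 5.78% in rabbit, 6.38% in pig and 27.4% in rat. In these shares rat whole testis was thus nearer to the mouse libraries from SSCs to pachytene than to rabbit or pig. In the SSC lines the 22-nt form held 54.2% in the control, 47.4% with TALEN and 44.5% with CRISPR. The 24-nt form held 22.1%, 29.4% and 26.1% in these lines, so the likeness of rat does not single out pachytene.

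Tails of U only were found on 3.28% of miR-191-5p reads in SSCs (2.98 to 3.61), 4.99% at pre-leptotene, 6.04% at leptotene, 5.84% at zygotene, 4.52% at pachytene, 8.68% for round spermatids (8.52 to 8.84) and 12.6% for mature sperm (12.6 to 12.7). Round spermatids and sperm were the highest of the mouse series. The median over miRNAs with a RefSeq hairpin was 5.28% (111 miRNAs) for round spermatids and 6.15% (185 miRNAs) for sperm, and 40 and 57 of them had a larger share. Tails of A only were on 4.16% of its reads in SSCs (3.81 to 4.52) and on 0.21% to 0.38% in the other mouse stages; they were on 2.79%, 3.61% and 2.93% in the SSC control, TALEN and CRISPR lines. All 4 cultured SSC libraries were therefore above the 6 other mouse libraries in A tails of miR-191-5p. In SSCs 86 of 300 miRNAs had a larger share, with 58 of 138, 39 of 114 and 44 of 108 in the control, TALEN and CRISPR lines. At pre-leptotene 142 of 190 had a larger share, and 101 of 111 for round spermatids. These ranks hold within a library only. How many other miRNAs part SSCs from the later stages by A tails is not given here.

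In round spermatids and sperm miR-425-5p had more A tails than U tails, the opposite of miR-191-5p. Tails of A only were on 2.79% of its reads in SSCs (1.40 to 4.94), 0.46% at pre-leptotene, 5.88% at leptotene (2.57 to 11.3), 3.03% at zygotene, 1.72% at pachytene (1.006 to 2.74), 12.9% for round spermatids (11.4 to 14.6) and 10.4% for mature sperm (9.93 to 10.9). Round spermatids and sperm were high, and among the other mouse stages the wide leptotene interval, from 136 reads, overlaps that of sperm. A larger share was found for 16 of 111 miRNAs in round spermatids and 29 of 185 in sperm, and over all these miRNAs pooled the A-tail share was 2.19% at pachytene, 6.19% for round spermatids and 3.56% for sperm. In rat testis the share was 15.8% (12.2 to 19.97), and 3 of 99 miRNAs had a larger one. U tails of miR-425-5p were on 4.46% of reads for round spermatids and 5.80% for sperm. The 25-nt form held 49.7% of its reads in pachytene (46.6 to 52.9), 33.4% in round spermatids and 16.1% in mature sperm (15.5 to 16.7). Reads longer than 26 nt are outside these shares. They numbered 47 beside 987 counted in pachytene, 66 beside 1726 in round spermatids and 725 beside 16591 in sperm.

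**Figure D3:**
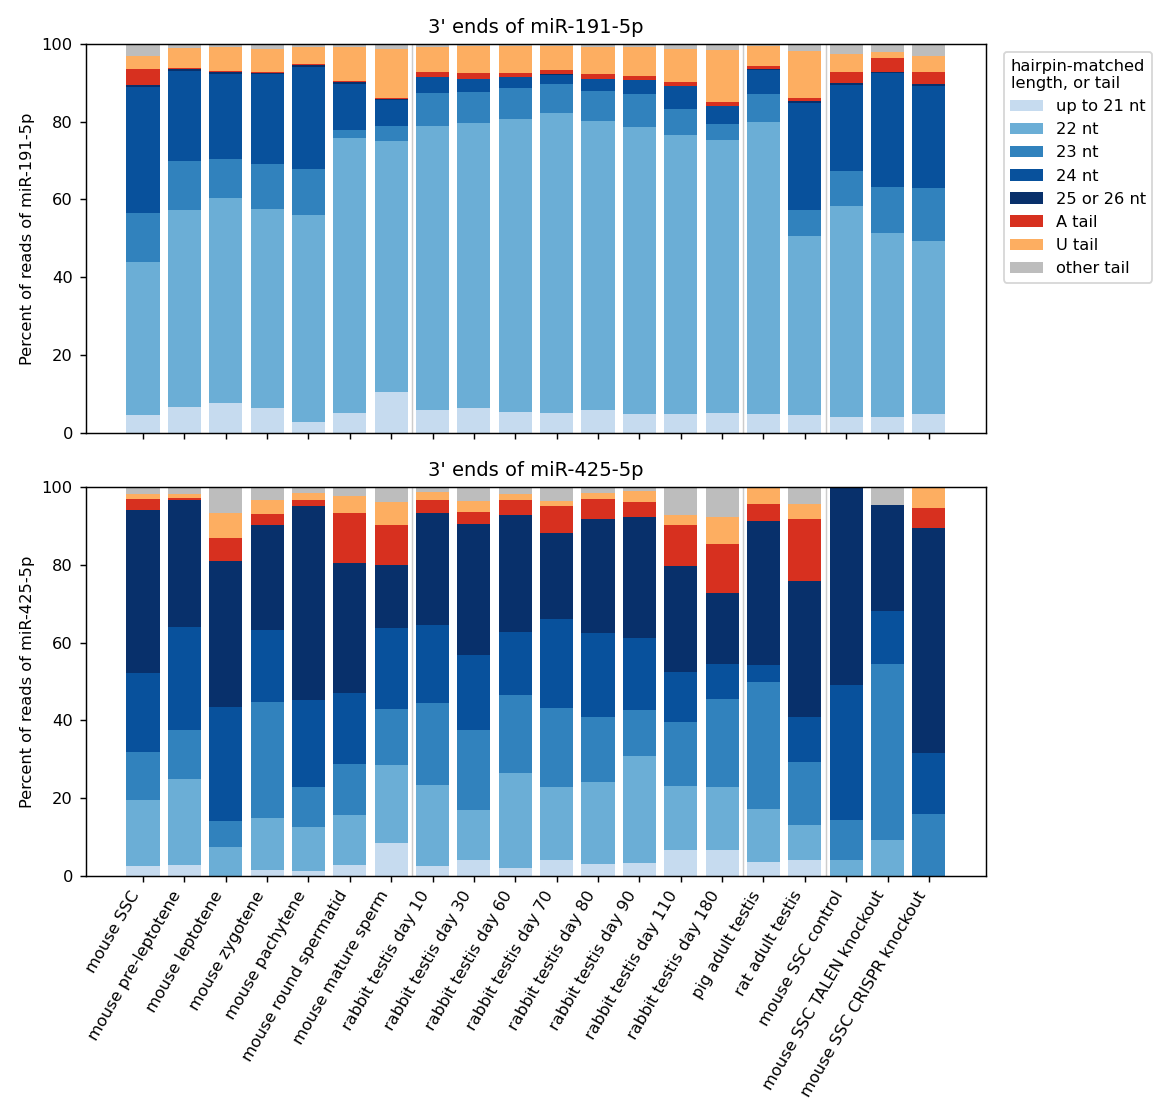
Share of reads of miR-191-5p (top) and miR-425-5p (bottom) by 3′ end in each library, in percent; blue shades are reads that follow the mouse hairpin to the length given, and red, orange and grey are reads with a tail of A only, U only or other bases. The 22-nt share of miR-191-5p is 70.8% in mouse round spermatids against 39.4% in SSCs, and the A tails of miR-425-5p are widest in round spermatids, sperm, old rabbits and rat.

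Over the 8 rabbit ages, 8 relations were tested: mean length, A tails, U tails and shifted starts of each member, by exact two-sided permutation tests with Benjamini-Hochberg adjustment over the 8. U tails of miR-191-5p were on 6.42% of reads on day 10, 6.73% on day 30, 6.82% on day 60, 6.10% on day 70, 6.96% on day 80, 7.40% on day 90, 8.42% on day 110 and 13.3% on day 180. The highest share was on the oldest day and the lowest on day 70. Spearman's rho with age was 0.86 (exact permutation p = 0.011, adjusted 0.062) and Pearson's r was 0.88 (exact permutation p = 0.0032, adjusted 0.013). Without days 10 and 180, the 2 ages farthest from the median, r was 0.71 (exact permutation p = 0.12), so the relation by r rests on those samples; rho over the same 6 ages was 0.83 (exact permutation p = 0.058), close to its value over 8.

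A tails of miR-425-5p were on 3.29% of reads on day 10, 3.33% on day 30, 3.90% on day 60, 6.94% on day 70, 5.30% on day 80, 3.82% on day 90, 10.4% on day 110 and 12.8% on day 180. Days 110 and 180 were the highest, with intervals of 8.05 to 13.1 and 9.51 to 16.8, and these rest on 608 and 351 reads. Spearman's rho was 0.83 (exact permutation p = 0.015, adjusted 0.062) and Pearson's r 0.88 (exact permutation p = 0.0024, adjusted 0.013). Without days 10 and 180 r was 0.71 (exact permutation p = 0.12), so this relation by r also rests on those samples; rho over the same 6 ages was 0.60 (exact permutation p = 0.24). Between days 10 and 90 alone, a choice made after the values were seen, rho was 0.60 for these A tails and 0.66 for the U tails of miR-191-5p, with exact permutation p of 0.242 and 0.175.

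The other 6 relations had adjusted p from 0.098 to 0.66 by rho. A tails of miR-191-5p had rho -0.76 with age (exact permutation p = 0.037, adjusted 0.098), from 1.33% on day 10 and 1.65% on day 30 to 0.97% on day 180. Library depth and the miRNA share of reads differed along the same ages, and their part in the tail shares was not tested. Medians over the miRNAs with a RefSeq hairpin ran from 2.23% to 3.99% for A tails and from 2.39% to 3.39% for U tails at the 8 ages. On day 180, 8 of 109 miRNAs had a larger share of A tails than miR-425-5p, against 64 of 164 on day 10.

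The 5′ start of miR-425-5p differed in rabbit. Its reads began 1 or 2 nt away from the mouse start in 23.1% on day 10 (18.6 to 28.1), 16.7% on day 30, 15.9% on day 60, 20% on day 70 (72 of 360 reads), 22.6% on day 80, 21.1% on day 90, 13.0% on day 110 and 10.5% on day 180 (7.61 to 13.9). In the 7 mouse stages the share was 0.00% to 3.19%, in pig 6.46% (3.94 to 9.91) and in rat 2.17% (0.94 to 4.23). The TALEN line had 15.4%, from 26 reads and with an interval of 4.36 to 34.9. All rabbit libraries were thus above all 7 mouse stages, and 546 of the 555 shifted rabbit reads began 1 nt downstream. The share of other miRNAs whose starts part rabbit from mouse in this way is not given here. The commonest shifted tags are printed because the shift changes the seed, marked by capitals.
miR-425-5p, 1 nt downstream: aTGACACGatcactcccgttgag
miR-191-5p, 1 nt downstream: aACGGAATcccaaaagcagct
For miR-191-5p the share was 0.85% to 1.03% in rabbit and 0.96% to 1.94% in the mouse stages, so no such difference was seen. Against age, shifted starts of miR-425-5p in rabbit gave rho -0.57 (exact permutation p = 0.15, adjusted 0.20).

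**Figure D4:**
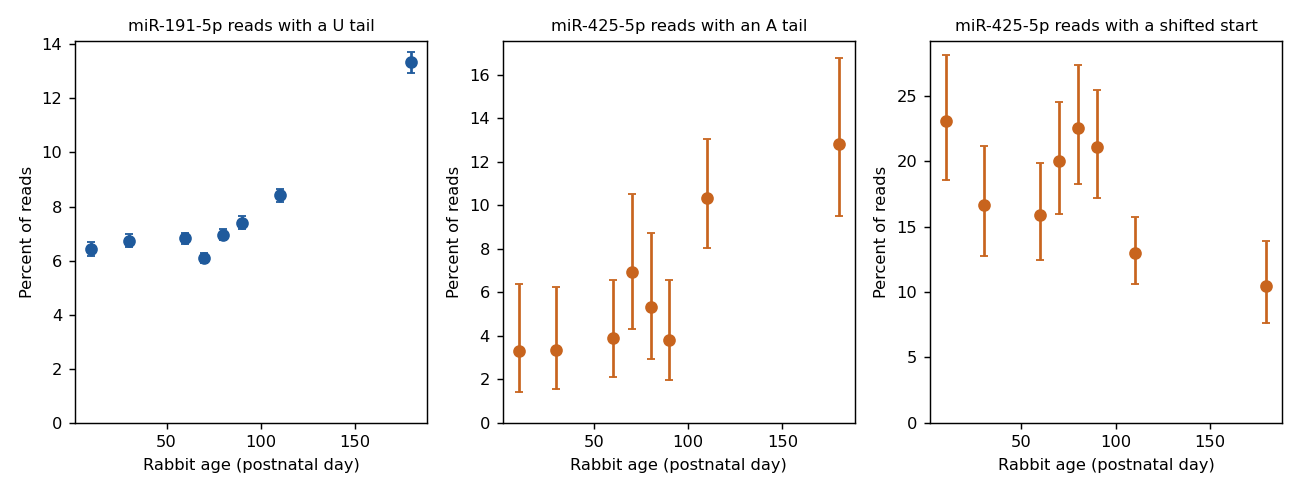
Percent of miR-191-5p reads with a U tail (left), of miR-425-5p reads with an A tail (middle) and of miR-425-5p reads with a shifted start (right) against rabbit age in days; each point is 1 library with its 95% Clopper-Pearson interval. The U-tail share is 13.3% and the A-tail share 12.8% on day 180, each the highest of its panel, and shifted starts are lowest then, at 10.5%.

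The miRNAs most like each member were found by Pearson's correlation of log2 RPM plus 1, a description over libraries that share their depths and totals. Over the 7 mouse stages and 422 miRNAs, miR-190b-5p (0.98), miR-30c-5p (0.95), miR-147-5p (0.94), miR-124a-3p (0.94) and miR-425-5p (0.94) were nearest to miR-191-5p. Nearest to miR-425-5p were miR-34c-3p (0.99), miR-184-3p (0.99), miR-34b-3p (0.97), let-7g-5p (0.97) and the entry of let-7a-5p and let-7c-5p (0.96), with miR-191-5p at place 11. The similarity of the pair was thus not mutual in rank.

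Over the 8 rabbit ages and 223 miRNAs, miR-1839-5p (0.99), miR-15a-5p (0.98), miR-200c-3p (0.96), miR-141-3p (0.96) and miR-425-5p (0.95) were nearest to miR-191-5p. Nearest to miR-425-5p were miR-34b-3p, miR-34c-5p, miR-34b-5p, miR-141-3p and miR-449a-5p, each at 0.99, with miR-191-5p at place 12. Members of the miR-34 family, known from late male germ cells of mouse, were thus near miR-425-5p in both species. In mouse only their 3p strands were among the 5 nearest. The late germ cell list of 5p strands was lower in mouse sperm than in round spermatids, 3 of 3 past 4-fold (median log2 -5.44). miR-425-5p was at its highest in that sperm library. miR-34c-5p itself ranged from 70.4 RPM on rabbit day 10 to 82301 on day 180.

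Against the 12 listed miRNAs that are often used as references in qPCR, the standing of the members depended on the scale. In RPM the highest mouse level of miR-191-5p was 140 times its lowest and that of miR-425-5p 160 times, while the 12 others ranged from 1.96 times for miR-30d-5p to 25.6 times for let-7i-5p. Over the rabbit ages the members ranged 4.20 and 7.08 times in RPM, and the 12 others from 1.49 to 3.69 times. On this scale 0 of 12 references had a wider range than either member in either series.

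In all-read RPM the members ranged 76.7 and 57.7 times over the mouse stages, and 2 of 12 references had wider ranges than both, miR-484 at 94.97 times and miR-24-3p at 91.8 times. Over the rabbit ages they ranged 2.52 and 1.45 times in all-read RPM, and 12 of 12 references had wider ranges, from 3.60 to 18.9 times. The order in rabbit is thus turned round between the scales. The members were chosen for their levels, so these ranges describe them and do not test them.

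**Figure D5:**
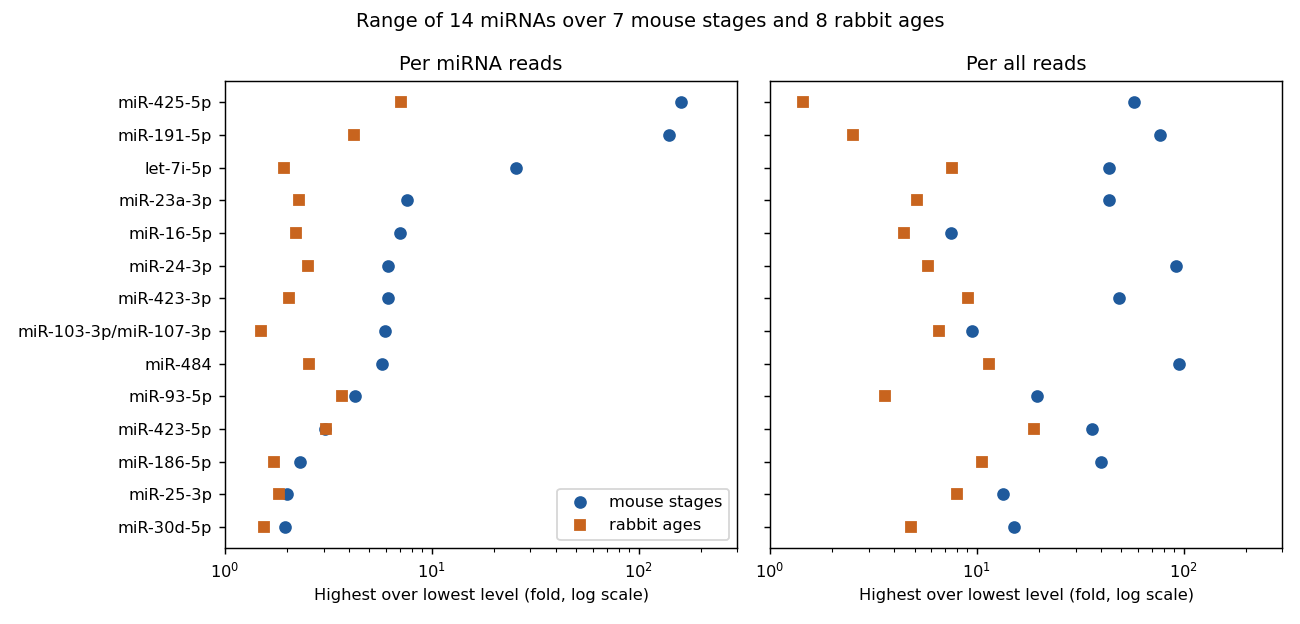
Highest over lowest level, on log axes, of miR-191-5p, miR-425-5p and 12 miRNAs used as qPCR references, over 7 mouse stages (blue circles) and 8 rabbit ages (orange squares), per miRNA reads (left) and per all reads (right). Per miRNA reads the members have the widest ranges of the 14 in both series, 140 and 160 times in mouse and 4.20 and 7.08 times in rabbit; per all reads 2 references exceed both in mouse, and in rabbit the members have the narrowest ranges, 2.52 and 1.45 times.

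Tags with 1 mismatch in the first 18 nt were a small addition in every library. They came to 0.88% of exact and mismatched miR-191-5p reads in mouse SSCs, 2.20% to 2.44% in the 6 other mouse stages, 0.64% to 0.89% in rabbit, 3.62% in pig and 4.39% in rat. For miR-425-5p they were 1.75% to 6.09% in the mouse stages and 0.32% to 1.40% in rabbit. In the 6 mouse libraries after SSCs the commonest substitution was A2G in miR-191-5p and A10C in miR-425-5p, counted from the 5′ end with the mature base first. In rabbit the shares stayed at or under 0.89% and 1.40%, so exact matches to the mouse prefix far outnumbered single-base variants there.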

How the data were processed

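Small RNA was sequenced on a HiSeq 2000 in 20 libraries, per the labels. The authors deposited a list of distinct tags with whole-number counts per library, not normalised; trimming is not given in the sources used here. The submitters' processing notes name Bowtie and a genome build of each species, with no role given. Tags were matched by their first 18 nt to 1660 RefSeq entries (from 1731 mature sequences) and to 208 hairpin arms of GENCODE release 21 that RefSeq lacked, whose start was the commonest one in these tags. Levels (RPM) are counts scaled to 1000000 miRNA reads or to 1000000 reads. Counting intervals are Poisson, Clopper-Pearson or conditional binomial, and PCR copies are not told apart. Tails are bases after the last match to the mouse hairpin, in every species; a tail base equal to the hairpin's next base counts as templated. A count of 0 was set to 3 for fold changes; a change was counted at 4-fold, or 2-fold in the knockouts, among miRNAs with at least 100 reads. edgeR 4.0.16 and DESeq2 1.42.0 gave alternative size factors only. Scripts were tested on simulated data. Members, lists and the rule for named miRNAs (the members, their 3p arms, the 5 most alike and the lists) were chosen with earlier results of these data known.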

Additional observations from a re-analysis of the deposited data

How the results depend on the processing

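No paired analysis was possible because each group has 1 library. Scaled by all reads, the log2 difference from zygotene to pachytene was -0.18 for miR-191-5p and 1.33 for miR-425-5p, that from round spermatid to sperm 3.17 and 3.13, and that from rabbit day 10 to 180 -0.57 and 0.18. Without the miR-506 family in the miRNA reads the first pair was 3.26 and 4.78 and the sperm pair 0.59 and 0.55. TMM factors gave 3.797 for miR-191-5p in pachytene, 1.011 and 0.97 in sperm and 1.61 and 2.36 in rabbit; DESeq2 size factors gave 3.81, 1.12 and 1.08, and 1.66 and 2.41. The full mature sequence gave 3.97 for miR-191-5p in pachytene, 1.51 and 1.60 in sperm and 1.51 for miR-191-5p in rabbit, and moved the median rabbit ratio from 152 to 26.9. Tags of 20 to 24 nt gave 3.93 and 4.87 in pachytene, 1.16 for miR-425-5p in sperm and a median rabbit ratio of 237. miRNAs with numbers under 1000 gave 3.94 for miR-191-5p in pachytene. At 4-fold, 2 member steps of 12 were past the mark, both from zygotene to pachytene, where 8.47% of miRNAs were 4-fold higher. At 2-fold 5 were, and the share of all miRNAs past 2-fold is not given here. By all reads 3 were past 4-fold. They were miR-191-5p from SSC to pre-leptotene, where 6.98% of miRNAs were 4-fold higher, and both members in sperm, where 59.8% were.

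With 1 rabbit age left out, rho with age was 0.79 to 1.00 for U tails of miR-191-5p (adjusted exact permutation p 0.0032 without day 70, 0.27 without day 110 or 180) and 0.75 to 0.96 for A tails of miR-425-5p (adjusted exact permutation p 0.049 without day 70, 0.022 without day 90, 0.27 without day 110 or 180). The range was -0.86 to -0.64 for A tails and 0.39 to 0.75 for length of miR-191-5p, and 0.39 to 0.71 for U tails and -0.71 to -0.36 for shifted starts of miR-425-5p. Signs turned for shifted starts of miR-191-5p (-0.21 to 0.54, main 0.19) and length of miR-425-5p (-0.54 to 0.0357, main -0.31; 0.0286 without days 10 and 180). Shifted starts of miR-425-5p gave 0.0286 without days 10 and 180, and 0.0286 over days 10 to 90. With tags of 20 to 24 nt, A tails of miR-191-5p had rho -0.88 and U tails 0.86 (adjusted exact permutation p 0.043 each), and A tails of miR-425-5p 0.57. The causes were not tested. Depth limits miR-425-5p most, with 19 to 49 reads in the 3 libraries of the knockout experiment and 136 in leptotene.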
